A study of Homo sapiens with 6 samples.

Results

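Integrin subunit genes were examined in MDA-MB-231 cells, an established human triple negative breast cancer line, after knockdown of the deubiquitinase gene USP32. The genes were chosen by symbol and are 5 alpha subunits (ITGA2, ITGA3, ITGA5, ITGA6, ITGAV) and 5 beta subunits (ITGB1, ITGB3, ITGB4, ITGB5, ITGB8), 10 of the 17646 genes listed for each library. The control group was transfected with siControl and the other with siUSP32, both for 48 h, and each group held 3 RNA-seq libraries. Every library came from the same parental line, and neither the siRNA sequences nor their number is given in the sources used here. The labels do not state separate cultures, so each p-value measures the spread between libraries, which may be technical.

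An integrin is a receptor made of 1 alpha and 1 beta chain, each crossing the membrane once, that holds the extracellular matrix outside the cell and is coupled to the actin or keratin cytoskeleton inside. The beta chain ITGB1 pairs with many alpha chains, ITGAV pairs with several beta chains, and the alpha chain ITGA6 is shared between ITGB1 and ITGB4. The alpha chain largely sets the ligand among ITGB1 partners, such as collagen for ITGA2, laminin for ITGA3 and ITGA6, and fibronectin for ITGA5. In breast cancer cells these receptors are known for their part in adhesion, spreading and invasion.

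The tails inside the cell, short except in ITGB4, are where some of the adaptor proteins described below attach. They are shown for that reason as coding bases from GENCODE 29 transcripts. In the 5 alpha chains, capitals mark the codons of the conserved membrane-proximal motif GFFKR, which a search of the translated transcripts found once in each.

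ITGA2 tail: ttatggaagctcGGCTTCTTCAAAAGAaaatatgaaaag
ITGA3 tail: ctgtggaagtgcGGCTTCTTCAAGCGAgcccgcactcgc
ITGA5 tail: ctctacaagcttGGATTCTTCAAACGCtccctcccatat
ITGA6 tail: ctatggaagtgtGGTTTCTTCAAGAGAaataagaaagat
ITGAV tail: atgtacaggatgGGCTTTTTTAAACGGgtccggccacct

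The motif begins 25 residues from the carboxy terminus in ITGA2 and 35 in ITGA3, with the other 3 between these. In beta chains, talin and kindlin bind tail motifs of the NPxY or NxxY type, whose codons are in capitals below.

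ITGB1 tail: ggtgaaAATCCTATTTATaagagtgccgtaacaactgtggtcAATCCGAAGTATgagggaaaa
ITGB3 tail: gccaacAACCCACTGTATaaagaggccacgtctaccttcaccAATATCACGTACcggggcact
ITGB5 tail: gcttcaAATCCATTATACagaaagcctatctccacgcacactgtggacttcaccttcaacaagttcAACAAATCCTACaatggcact

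These 3 beta chains hold 2 such motifs each within the last 60 residues, and the same search found none there in ITGB4 or ITGB8. The ITGB4 protein has 1822 residues against 769 in ITGB8, and its long tail was not searched beyond the last 60.

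Promoters are shown for 2 beta chains, ITGB1, whose FPKM was the highest of the 10 in siControl, and ITGB5, whose fold change was the smallest. RefSeq's promoter table (GRCh38.p14) matched 7 of the 10 genes with 12 start sites, and ITGA3, ITGB3 and ITGB4 were not matched. Capitals mark GGAATG, the letters bound by TEAD proteins, searched on both strands in the 250 bases before each start. Both genes have more than 1 start site, and 1 window of each is printed. Windows not printed differ in GC content, such as 41.6% against 78.4% printed for ITGB1 and 75.2% against 52.8% printed for ITGB5.

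ITGB1 promoter, chr10:32958231-32958480, minus strand: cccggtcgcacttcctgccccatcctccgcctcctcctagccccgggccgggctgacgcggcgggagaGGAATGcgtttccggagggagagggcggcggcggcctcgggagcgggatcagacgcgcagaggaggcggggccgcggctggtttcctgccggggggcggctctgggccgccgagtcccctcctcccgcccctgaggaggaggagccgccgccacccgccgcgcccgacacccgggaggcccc
ITGB5 promoter, chr3:124901419-124901668, minus strand: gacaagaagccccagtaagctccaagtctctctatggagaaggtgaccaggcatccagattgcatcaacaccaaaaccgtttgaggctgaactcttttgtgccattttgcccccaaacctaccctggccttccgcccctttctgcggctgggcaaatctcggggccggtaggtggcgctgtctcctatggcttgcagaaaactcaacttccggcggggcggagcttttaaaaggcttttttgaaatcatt

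GGAATG was found in 2 of the 12 windows, the one printed for ITGB1 and that of ITGA5, against 11.9% of all 35116 promoters searched and 9.80% of the 14417 of tested genes. The GC box letters GGGCGG were in 7 of the 12 windows, among them both printed ones, against 42.6% of all promoters and 64.2% of those of tested genes. The AP-1 letters TGANTCA were in 0 of 12 against 6.57% of all promoters and 4.38% of those of tested genes, and TATAAA in 2 of 12 against 10.7% and 6.01%. Each motif was searched separately on both strands, so matches of different motifs may overlap, and a match describes sequence only.

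FPKM expresses fragments relative to transcript length in kilobases and to the mapped fragments of the library, so levels are compared between genes per unit of length. FPKM summed over all genes to between 686376 and 694831 in the siControl libraries and between 855573 and 948641 in the siUSP32 libraries, with siUSP32 library 2 the highest. Low FPKM values, multiplied by GENCODE lengths, put depth at a rough 13500000 to 14300000 fragments per library. USP32 itself was 7.5, 7.48 and 8.32 FPKM in siControl and 2.0, 1.88 and 2.01 in siUSP32. The 6 mesenchymal line markers were present and summed to 3980 to 4220 FPKM in siControl and 5090 to 5600 in siUSP32, where VIM rose 1.53-fold and CD44 and AXL fell 3.15-fold and 3.86-fold, while ESR1 (0.5) and CDH1 (0.473) were low. The leukocyte marker PTPRC was at 0 in siControl, and the endothelial markers CDH5, VWF and KDR were at or below 0.0400 in both group means. The 5 listed endothelial markers summed to 3.05 to 3.22 FPKM in siControl and 0.820 to 0.870 in siUSP32, and the 5 listed fibroblast markers, mostly LUM, to 35.2 to 36.7 and 8.80 to 9.61. The 5 listed leukocyte and platelet markers, mostly CD14, summed to 7.63 to 9.06 and 4.95 to 6.12, and the 9 luminal and epithelial ones, mostly keratins, to 6530 to 6620 and 6230 to 7140. The part of other cell types in the integrin differences was not tested, and in bulk RNA fewer cells of a type and less RNA per cell cannot be told apart.

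All 10 integrin genes were lower in siUSP32. Their mean FPKM fell between 2.88-fold (ITGB5) and 19.1-fold (ITGA2), and each was called at an adjusted p under 0.05 by limma, a linear model fitted to log2(FPKM + 1) of the 12003 genes that averaged 1 FPKM or more. The background was large, since 41.3% of those genes were called lower and 33.3% higher. Groups did not overlap for any of the 10 genes, as was the case in the lower direction for 43.2% of all genes tested. An exact 2-sided permutation test gave p = 0.1 for each of the 10, the smallest value that 3 libraries against 3 allow.

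ITGB1, the common beta chain of the collagen, laminin and fibronectin receptors, lies on chromosome 10 (32900319 to 33005792 on GRCh38, minus strand, 16 exons in the transcript used). It had 341, 348 and 358 FPKM in siControl and 28.6, 21.8 and 28.7 in siUSP32. The lowest siControl library was thus far above the highest siUSP32 library, and siUSP32 library 2 was the lowest of the 6. Mean FPKM fell 13.2-fold, with a difference in log2(FPKM + 1) of -3.69 ± 0.10 (SE, n = 3 and 3, limma adjusted p = 4.30e-09), the 6th lowest of the 12003 genes. Of the 30-base words in its transcript, 16.6% also occur in transcripts of other annotated genes. AC022149.1 is the gene that shares the most of them, so reads may have been shared with that locus.

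ITGA6, the laminin-binding alpha chain that ITGB1 and ITGB4 share, lies on chromosome 2 (172427354 to 172506282, plus strand, 26 exons). It had 82.2, 84.4 and 88.4 FPKM in siControl and 5.14, 4.4 and 6.12 in siUSP32. No library of either group came near the other. The fall was 16.3-fold, with a log2 difference of -3.80 ± 0.09 (limma adjusted p = 3.29e-09), the 4th lowest of all genes tested and the lowest of the 10. Genes on the opposite strand overlap 6.25% of its exon bases, and whether counting used strand is not given in the sources used here.

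ITGA2, the collagen-binding alpha chain, lies on chromosome 5 (52989326 to 53094779, plus strand, 30 exons). Its FPKM was 21.3, 21.9 and 22.7 in siControl and 1.20, 0.900 and 1.35 in siUSP32. The siUSP32 libraries averaged 5.23% of the siControl mean and lay far below it. Mean FPKM fell 19.1-fold, and the log2 difference was -3.42 ± 0.09 (limma adjusted p = 3.73e-09). By fold of mean FPKM it ranked first of the 10, but by log2(FPKM + 1) it ranked 4th, because the added 1 understates changes of genes at low levels.

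ITGA3, a laminin-binding alpha chain, lies on chromosome 17 (50055968 to 50090481, plus strand, 26 exons). It had 186, 182 and 181 FPKM in siControl and 28.6, 32.0 and 28.0 in siUSP32. Unlike ITGB1, ITGA3 was highest in library 2 among the siUSP32 libraries. It fell 6.20-fold, with a log2 difference of -2.59 ± 0.06 (limma adjusted p = 2.64e-09).

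ITGA5, the alpha chain of the classical fibronectin receptor, lies on chromosome 12 (54395261 to 54419460, minus strand, 30 exons). Its FPKM was 137, 138 and 140 in siControl and 38.5, 43.2 and 41.4 in siUSP32. These siUSP32 levels were the highest of any of the 10 genes in that group. ITGA5 fell 3.37-fold, with a log2 difference of -1.73 ± 0.05 (limma adjusted p = 1.08e-08).

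ITGAV, the alpha chain of receptors for vitronectin, fibronectin and latent TGF-beta, lies on chromosome 2 (186590065 to 186680901, plus strand, 30 exons). It had 60.9, 61.2 and 63.3 FPKM in siControl and 5.30, 3.34 and 5.23 in siUSP32. As with ITGB1, library 2 was the lowest siUSP32 library, and the groups stayed far apart. ITGAV fell 13.4-fold, with a log2 difference of -3.5 ± 0.13 (limma adjusted p = 2.78e-08).

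Besides ITGB1, 3 other beta chains among the 10 pair with ITGAV, and their mean FPKM fell by smaller folds than that of ITGAV. ITGB5, a vitronectin receptor chain on chromosome 3 (124761948 to 124901418, minus strand, 15 exons), had 32.69, 31.45 and 31.01 FPKM in siControl and 10.3, 11.1 and 11.6 in siUSP32. That is a 2.88-fold fall and a log2 difference of -1.45 ± 0.06 (limma adjusted p = 5.02e-08). ITGB5 had the smallest fold of the 10, but its log2 difference was within the combined SE of that of ITGB3, which was the smaller one under quantile normalization (-1.10 against -1.33).

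ITGB3, the vitronectin receptor beta chain also known from platelets, lies on chromosome 17 (47253846 to 47311816, plus strand, 15 exons). Its FPKM was 6.57, 6.27 and 6.91 in siControl and 1.87, 1.55 and 1.86 in siUSP32, a 3.74-fold fall with a log2 difference of -1.46 ± 0.08 (limma adjusted p = 2.41e-07). Its value is uncertain, because 56.4% of its 30-base words also occur in transcripts of other annotated genes. The gene that shares the most, AC068234.1, overlaps 56.7% of its exon bases on the same strand.

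ITGB8, the beta chain known for activating latent TGF-beta, lies on chromosome 7 (20330702 to 20415754, plus strand, 14 exons). It had 4.04, 4.03 and 4.42 FPKM in siControl and 0.600, 0.440 and 0.670 in siUSP32. Its groups were clearly separated at low levels. The fall was 7.30-fold, with a log2 difference of -1.72 ± 0.08 (limma adjusted p = 1.21e-07), and the siUSP32 values rest on an estimated 55 to 83 fragments per library.

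ITGB4, the laminin receptor chain of hemidesmosomes, whose long tail binds keratin-linked plectin, lies on chromosome 17 (75721328 to 75757818, plus strand, 40 exons). Its FPKM was 6.0, 6.41 and 5.70 in siControl and 0.660, 0.520 and 0.690 in siUSP32. The highest siUSP32 library was well under the lowest siControl library. ITGB4 fell 9.68-fold, with a log2 difference of -2.12 ± 0.08 (limma adjusted p = 2.38e-08), on an estimated 44 to 58 fragments per siUSP32 library.

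**Figure D1:**
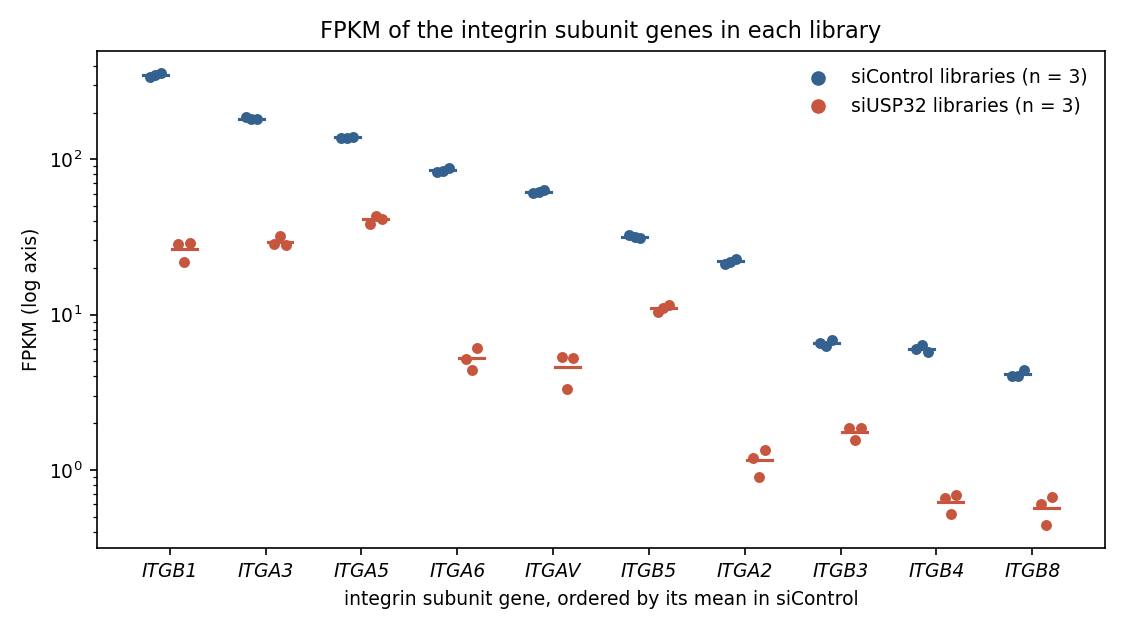
FPKM of the 10 integrin subunit genes in each library, on a log axis, with a bar at each group's mean (3 libraries a group), ordered by the siControl mean. In every gene the siUSP32 points lie below the siControl points, and ITGB1 goes from 349 to 26.3 FPKM while ITGA5 goes from 138 to 41.1.

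The size of the fall split the 10 genes into uneven steps. ITGA6, ITGB1, ITGAV and ITGA2 lay between -3.80 and -3.42 in log2(FPKM + 1), then came a gap of 0.83 to ITGA3. Neighbours whose gap was smaller than their combined SE were ITGA6 and ITGB1, ITGAV and ITGA2, ITGA5 and ITGB8, and ITGB3 and ITGB5. This order depends on the added 1, since with 0.1 added instead ITGB8 was at -2.68, beyond ITGA3 at -2.63 and far from ITGA5 at -1.75, and ITGB4 was at -3.09. The 4 largest falls were in transcripts with a GC content of 38.2% to 42.9%, and ITGB8 had the lowest GC content (37.8%) with a 7.30-fold fall.

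Levels changed order between groups as well. In siControl, mean FPKM declined from ITGB1 (349) through ITGA3 (183), ITGA5 (138), ITGA6 (85.0), ITGAV (61.8), ITGB5 (31.7) and ITGA2 (22.0) to ITGB3 (6.58), ITGB4 (6.04) and ITGB8 (4.16). Of those neighbours, ITGB3 and ITGB4 overlapped in range and the others did not. In siUSP32 the order was ITGA5 (41.1), ITGA3 (29.5), ITGB1 (26.3), ITGB5 (11.0), ITGA6 (5.22), ITGAV (4.62), ITGB3 (1.76), ITGA2 (1.15), ITGB4 (0.623) and ITGB8 (0.570). There the ranges of ITGA3 and ITGB1, of ITGA6 and ITGAV, and of ITGB4 and ITGB8 overlapped, so their order is not resolved.

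Over the 25 listed integrin subunit genes, summed FPKM fell 6.86-fold, from 917 ± 11.2 (SD, n = 3) to 134 ± 3.18 (SD, n = 3). Beta subunits together went from 409 ± 7.38 to 42.8 ± 4.5 and alpha subunits from 508 ± 4.21 to 90.8 ± 2.11. ITGB1 alone went from 349 to 26.3, so the beta sum largely followed ITGB1. Among the 10 genes, single falls ranged from 3.37-fold to 19.1-fold in alpha chains and from 2.88-fold to 13.2-fold in beta chains. The ratio of summed alpha to summed beta FPKM was 1.23 to 1.26 in the siControl libraries and 1.98 to 2.46 in the siUSP32 libraries. It did not overlap, and its log2 difference of 0.78 had an exact permutation p = 0.1, the smallest possible. With the 10 genes alone the mean ratio went from 1.23 ± 0.0150 to 2.04 ± 0.284 (SD).

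Within that sum ITGB1 gave way to ITGA5. ITGB1 held 37.5%, 38.1% and 38.5% of the summed FPKM in siControl and 21.4%, 16.7% and 21.0% in siUSP32. ITGA5 held 15.1%, 15.1% and 15.0% in siControl and 28.9%, 33.1% and 30.2% in siUSP32. ITGB5 also took a larger share, 8.23% ± 0.422 (SD) after 3.46% ± 0.133, as did ITGB3 with 1.32% ± 0.113 after 0.718% ± 0.0288. For these 4 genes the groups did not overlap.

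Shares went the other way in ITGA6, from 9.27% ± 0.229 to 3.90% ± 0.551 (SD), in ITGAV, from 6.74% ± 0.0572 to 3.45% ± 0.775, and in ITGA2, from 2.40% ± 0.0504 to 0.858% ± 0.153. ITGB4 went from 0.658% ± 0.0444 to 0.466% ± 0.0585. ITGA3 kept 20.0% ± 0.513 in siControl and 22.1% ± 2.12 in siUSP32, and its groups touched at 20.5% (exact permutation p = 0.2). ITGB8 was at 0.454% ± 0.0188 and 0.425% ± 0.0790, with overlapping groups (exact permutation p = 0.9). The other 8 shares each had an exact permutation p = 0.1 and a Benjamini-Hochberg value of 0.125 over the 10 shares, so none passed 0.05, which this design cannot reach.

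**Figure D2:**
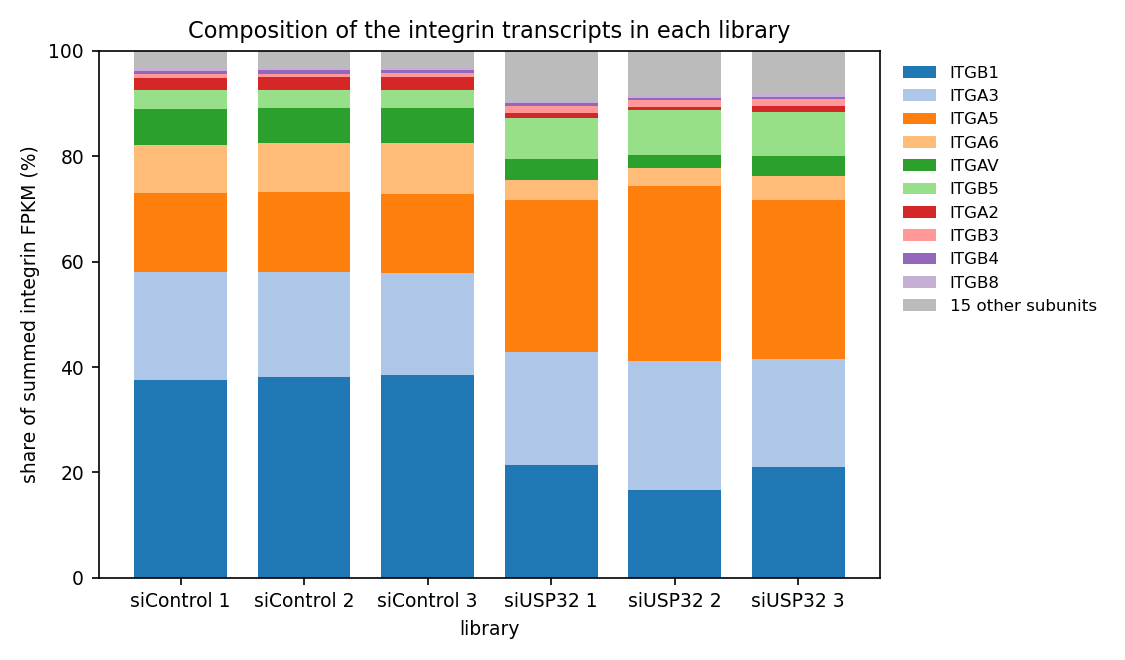
Share of each integrin subunit gene in the summed FPKM of 25 listed subunits, as stacked bars for the 6 libraries (percent, from 0 to 100), with the 15 other subunits in grey. The ITGB1 segment spans 37.5% to 38.5% in siControl and 16.7% to 21.4% in siUSP32, and the ITGA5 segment grows to between 28.9% and 33.1%.

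Ratios between partner chains within a library, 10 in all, show the same uneven falls. ITGA5 per ITGB1 was 0.403, 0.395 and 0.391 in siControl and 1.35, 1.99 and 1.44 in siUSP32, a 4.02-fold higher mean ratio. ITGB5 per ITGAV was 0.537, 0.514 and 0.490 and then 1.95, 3.32 and 2.21, which is 4.86-fold higher. In both ratios siUSP32 library 2 stood highest, and in both the partner in the denominator went from the more to the less abundant transcript.

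ITGB3 per ITGAV went from 0.106 ± 0.00361 to 0.391 ± 0.0634 (SD), ITGB8 per ITGAV from 0.0673 ± 0.00221 to 0.124 ± 0.00982, and ITGA3 per ITGB1 from 0.525 ± 0.0199 to 1.15 ± 0.279. For the hemidesmosomal pair, ITGB4 per ITGA6 went from 0.0711 ± 0.00598 to 0.120 ± 0.00795. ITGB4 per ITGB1 went from 0.0173 ± 0.00126 to 0.0237 ± 0.000519. ITGA6 per ITGB1 was lower in siUSP32 (0.198 ± 0.0171 after 0.244 ± 0.00325), as was ITGA2 per ITGB1 (0.0435 ± 0.00313 after 0.0630 ± 0.000563). These 9 ratios did not overlap between groups, each with an exact permutation p = 0.1 and a Benjamini-Hochberg value of 0.111.

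ITGAV per ITGB1 was 0.179, 0.176 and 0.177 in siControl and 0.185, 0.153 and 0.182 in siUSP32. Its groups overlapped (exact permutation p = 1.0), and its log2 difference of -0.03 compares with a pooled SD of 0.11. Without siUSP32 replicate 2 that difference was 0.05.

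**Figure D3:**
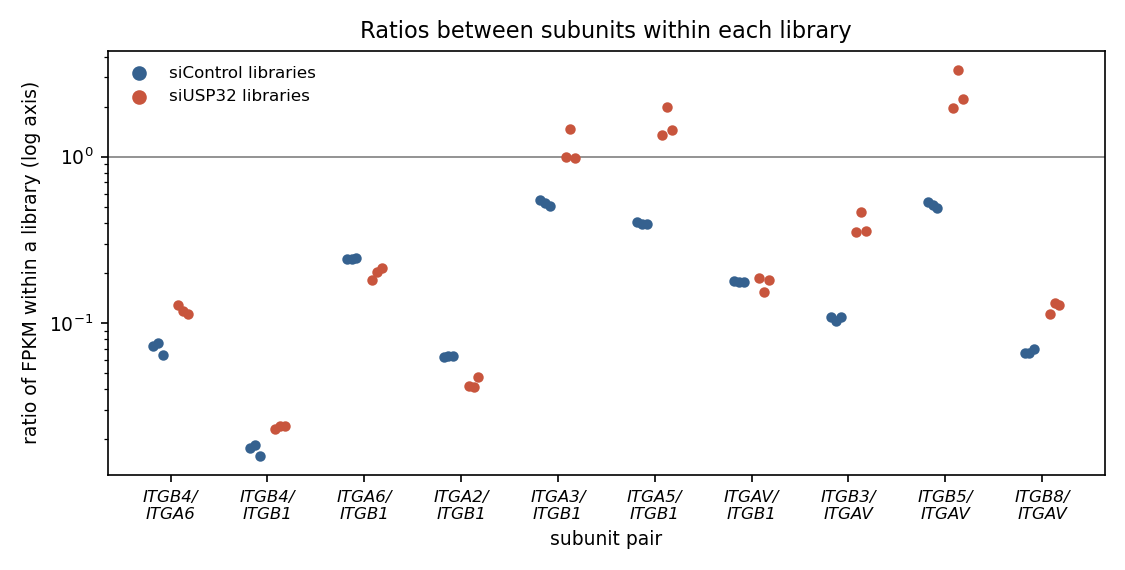
Ratio of FPKM between 2 subunit genes within each library, on a log axis with a line at 1, for the 10 pairs examined (3 points a group). ITGA5/ITGB1 and ITGB5/ITGAV rise from below to above 1, while ITGAV/ITGB1 has overlapping groups.

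Differences in overall scale between libraries did not remove any of the 10 falls. Rescaling every library to the same sum (TPM) shifted the median log2 difference of all genes by -0.33, and the calls over all genes then became 7453 lower and 1716 higher, against 4956 and 4001 before. Under that scaling the 10 genes lay between -4.19 and -1.82, and under quantile normalization, which shifted the median by 0.16, between -3.84 and -1.10. The 10 transcripts are 3640 to 8751 bases long, and the 4039 tested genes in that range of length had a median log2 difference of -0.34 against -0.06 over all. After a correction for length, by which 35.2% of 11957 genes were called lower, ITGB1 stood at -3.52, ITGA6 at -3.41, ITGAV at -3.04, ITGA2 at -2.93 and ITGA3 at -2.27. The corrected values of the other 5 lay between -1.71 (ITGB4) and -1.18 (ITGB5), and ITGB8 moved the furthest in relative terms, from -1.72 to -1.20. All 10 remained called by limma.

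**Figure D4:**
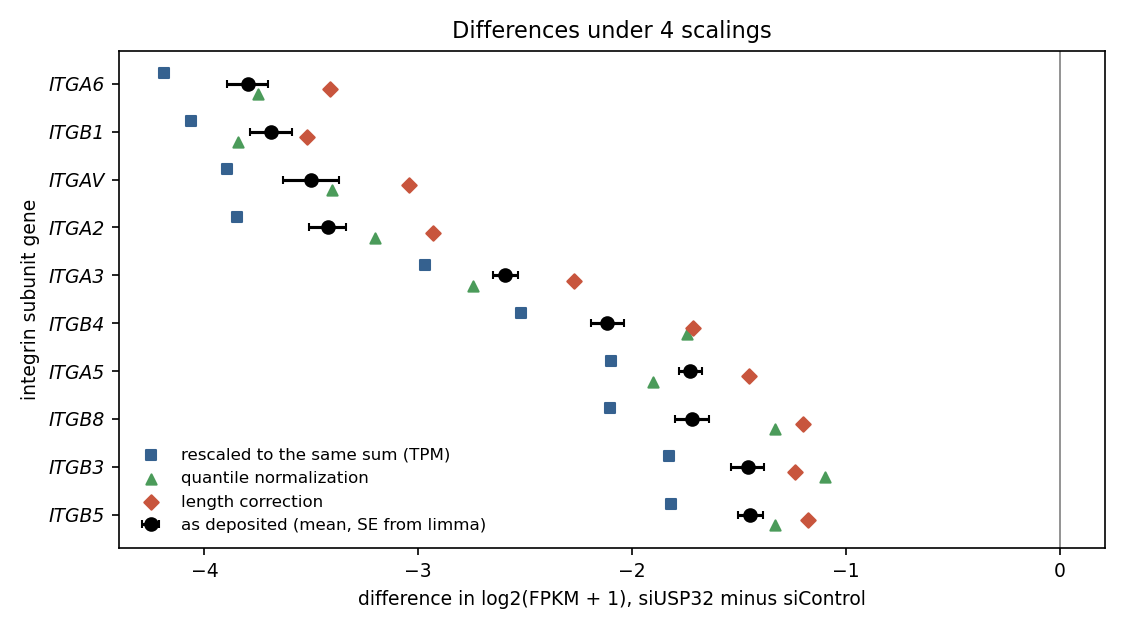
Difference in log2(FPKM + 1), siUSP32 minus siControl, of each integrin subunit gene as deposited (black, with the SE from limma), rescaled to the same sum, quantile normalized and corrected for length. All points lie left of 0, from -4.19 for ITGA6 rescaled to -1.10 for ITGB3 quantile normalized.

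The 10 genes share a membrane-spanning protein, a feature that moved broadly in these libraries. All 10 encode a hydrophobic segment, defined as 19 residues whose Kyte-Doolittle hydropathy averaged 1.6 or more. Among the 3900 tested genes with such a segment 62.5% were called lower, against 31.0% of the 8057 without one. Of the 744 genes with a segment in the first 40 residues and another after it, as 4 of the 10 integrin genes have by this rule, 78.9% were called lower. A call of lower is therefore common among genes of this kind.

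The size of the integrin falls can be read against the same classes. The median log2 difference was -2.36 over the 10 genes, -0.06 over all genes tested, -0.43 over genes with a hydrophobic segment and -0.89 over those with both segments. A fall at least as large as that of ITGB5, the smallest of the 10, was seen in 5.69% of all genes tested and in 15.4% of those with a hydrophobic segment. Among the 241 genes with both segments and a transcript length inside the integrin range, the median was -1.25 and 41.9% fell at least as much as ITGB5. The integrin genes are themselves counted in these classes where they meet the definition.

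Of 16 other subunit genes 15 were listed, and ITGA8 was not analysed here. The 4 that passed the filter on low values were 3 that fell and 1 that rose, beside 41.3% lower and 33.3% higher of all genes tested. All 4 have a hydrophobic segment, and of all tested genes with one 62.5% were called lower. ITGB2, the leukocyte beta chain, had 10.71, 10.52 and 10.02 FPKM in siControl and 1.92, 1.6 and 1.76 in siUSP32, and fell 5.92-fold, with a log2 difference of -2.05 (limma adjusted p = 1.92e-08). ITGA1, a collagen-binding alpha chain, fell 8.95-fold from 4.0 ± 0.372 to 0.447 ± 0.116 FPKM (SD), and ITGA7, a laminin-binding one, fell 5.46-fold from 5.20 ± 0.366 to 0.953 ± 0.156. After the length correction ITGA1 was at -1.22 in place of -1.79. The siUSP32 values of ITGA1 rest on an estimated 52 to 86 fragments per library, and the same-strand gene PELO overlaps 4.42% of its exon bases.

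ITGAE, the alpha chain that binds E-cadherin on other cells, had 6.01, 5.67 and 5.23 FPKM in siControl and 7.35, 6.89 and 6.43 in siUSP32. The groups did not overlap, and the log2 difference was 0.25 ± 0.07 (limma adjusted p = 0.0135). That direction depended on scale, since it was -0.07 after rescaling to the same sum (limma adjusted p = 0.473). The call was also lost without siControl replicate 3 (0.20) and without siUSP32 replicate 1 (0.21). With the others falling, ITGAE went from 0.615% to 5.16% of summed integrin FPKM.

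Several alpha chains known from blood cells were near 0, unlike ITGB2. ITGA4 reached at most 0.0100 FPKM in any library, ITGAL 0.02 and ITGAD 0.0300. ITGAX, which did not pass the filter, had means of 1.62 FPKM in siControl and 0.357 in siUSP32, and ITGB6, likewise untested, 1.21 and 0.610.

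Of 23 tested matrix ligands of integrins, 22 fell and 1 rose, where 41.3% of all genes tested were called lower. Their median log2 difference was -2.29 (-1.93 after the length correction) beside -0.06 for all genes tested. FN1, fibronectin and the ligand of the ITGA5 and ITGB1 pair, fell 39.6-fold from 421 ± 5.36 to 10.6 ± 1.05 FPKM (SD). LAMC1, the gamma chain of many laminins, fell 18.1-fold and COL5A1, a collagen V chain, 9.38-fold. The call of SPP1, osteopontin, was the weakest, with overlapping groups (limma adjusted p = 0.0485) and 0.09 under quantile normalization, and COL1A1, a collagen I chain, was not called after the length correction (limma adjusted p = 0.0907). COL4A1, a basement membrane collagen, rose 2.79-fold at a low level, from 0.660 ± 0.0624 to 1.84 ± 0.235 FPKM.

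All 21 tested lateral partners, membrane proteins that associate with integrins at the cell surface, fell, with a median log2 difference of -1.25, beside 62.5% called lower of all genes with a hydrophobic segment. The count was 18 under median-ratio scaling, and CAV1, a caveolar protein, was not called after the GC correction (log2 difference -0.03, limma adjusted p = 0.481, and -0.17 before). L1CAM, an adhesion molecule that binds integrins, fell 8.20-fold, NRP1, a co-receptor for semaphorins and VEGF, 7.77-fold, and SLC7A5, the amino acid transporter linked to CD98, 3.44-fold. The proteins of 20 of these 21 have a hydrophobic segment, as do 14 of the 23 ligands. The 6 hemidesmosome partners also fell, with a median of -0.83, beside 41.3% called lower of all genes tested. COL17A1, a transmembrane collagen of that structure, was at -0.21 (limma adjusted p = 0.0415), but at 0.17 after the length correction and 0.14 under quantile normalization, where it was not called. PLEC, the plectin that ties ITGB4 to keratins, fell 1.85-fold, DST 2.57-fold and the tetraspanin CD151, which is also in the lateral list, 1.43-fold. The log2 difference of PLEC was -0.26 after the length correction against -0.88 before, and that of DST -0.37 against -1.0.

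Cytoplasmic adhesion partners, as listed here, bind integrin tails, link them to actin or take part in signalling at adhesions. Of 38 tested, 16 fell and 14 rose, and 8 did not pass the test, shares near the 41.3% lower and 33.3% higher of all genes tested. Their median log2 difference was -0.06, which over all genes tested was also -0.06. The split depended on scale, at 25 lower and 1 higher after rescaling to the same sum and 11 and 17 after the length correction. Calls over all genes moved as well, to 7453 lower and 1716 higher of 12003 after rescaling. After the length correction they were 4205 lower and 4185 higher of 11957. The proteins of 4 of the 38 have a hydrophobic segment.

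TNS4 and TNS1, tensins that bind beta tails, fell 3.02-fold and 3.87-fold. After the length correction TNS1 went from -1.03 to -0.47. ILK, the pseudokinase at beta tails, rose 1.38-fold, RSU1, of the same adhesion complex, 1.45-fold and the actin crosslinker ACTN1 1.31-fold, and none of these 3 rises was called after rescaling to the same sum. TLN1, a talin, and FERMT1 and FERMT2, kindlins, bind the 2 beta tail motifs and were chosen after their values were seen. FERMT1 fell from a mean of 11.7 to 6.56 FPKM (log2 difference -0.77, limma adjusted p = 0.000454). It stayed called after the length correction, at -0.42 (limma adjusted p = 0.00314). TLN1 had 23.8 and 22.2 FPKM (limma adjusted p = 0.0927) and FERMT2 33.2 and 31.7 (limma adjusted p = 0.521), and after rescaling to the same sum both were called lower, at -0.46 and -0.44. After the length correction TLN1 was called higher, at 0.42 (limma adjusted p = 0.000225), and FERMT2 was at 0.04 and not called.

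Of 22 tested genes for integrin trafficking, the uptake and recycling of receptors, 6 fell and 9 rose, and 7 did not pass the test, beside 41.3% lower and 33.3% higher of all genes tested. Their median log2 difference was 0.03. Rescaling to the same sum gave 14 lower and 2 higher, where 7453 of all 12003 genes tested were lower and 1716 higher. The length correction gave 1 lower and 13 higher, where 4205 of 11957 genes were lower and 4185 higher. HAX1, a binder of the ITGB6 tail, rose 2.03-fold and CYTH2, an exchange factor for ARF6, 1.68-fold. RAB5A, the early endosome GTPase, rose 1.42-fold but was not called after rescaling (limma adjusted p = 0.184). ARF6, a GTPase of integrin recycling, fell 1.26-fold (log2 difference -0.32, and -0.12 after the length correction). SNX27 and DAB2, adaptors for recycling and uptake, fell 1.39-fold and 1.35-fold, and neither was called after the length correction.

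**Figure D5:**
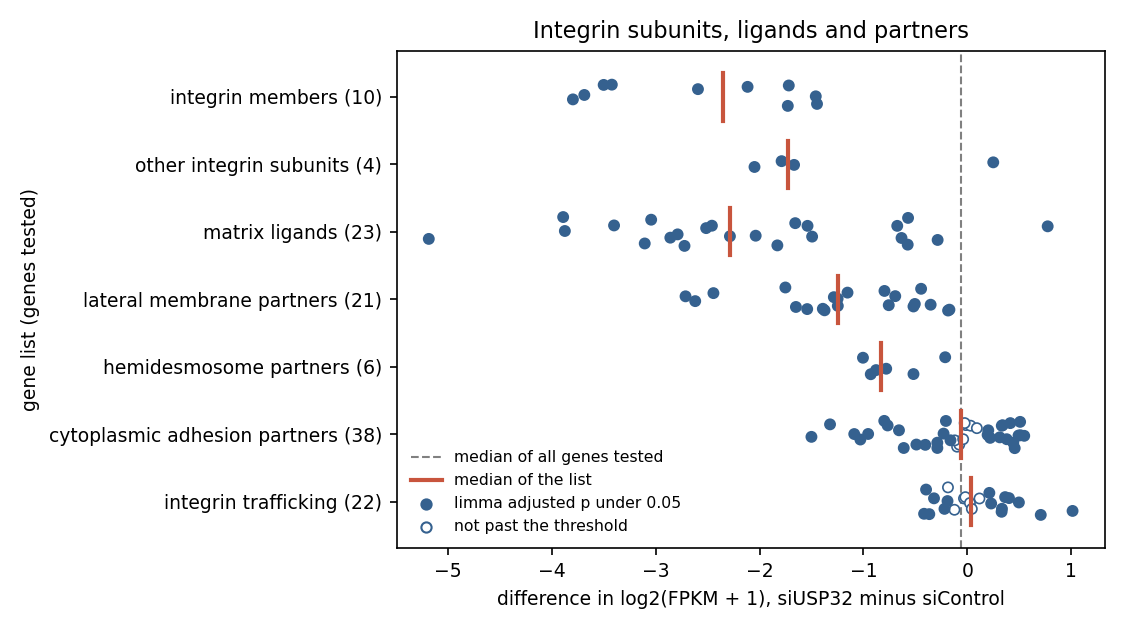
Difference in log2(FPKM + 1), siUSP32 minus siControl, of each tested gene in 7 lists (filled points called by limma, open points not), with the list's median in red and the median of all genes tested, -0.06, as a dashed line. Integrin subunits, ligands and lateral partners lie mostly left of that line, and the cytoplasmic and trafficking lists straddle it.

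The genes most like ITGB1 were found by Euclidean distance over the 6 libraries, in log2(FPKM + 1) relative to each gene's siControl mean. Outside the 10 they were APP (distance 0.17), C3 (0.28), LAMC1 (0.40), DAG1 (0.41) and FBLN2 (0.44). APP, the amyloid precursor protein, had 340, 348 and 350 FPKM in siControl and 25.9, 21.3 and 26.3 in siUSP32, with library 2 the lowest of its group as for ITGB1. DAG1, the dystroglycan that is itself a laminin receptor, fell 14.9-fold and the complement component C3 15.7-fold. Within the 10, ITGA6 was at 0.25 from ITGB1, ITGAV at 0.35 and ITGA2 at 0.47, whereas ITGA3 was at 1.95 and ITGB5 at 3.90. Because values are relative to the siControl mean, this distance mostly repeats the size of the fall given above and also depends on the added 1.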

How the data were processed

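The authors deposited FPKM values with 2 decimals for each of the 6 libraries, per the file headers, with GRCh38.p13 as the genome, per the submitters' processing notes. Aligner, counter, annotation and use of strand were not given in the sources used here. FPKM is not a count, so limma 3.58.1 (R 4.3.3, mean-variance trend, 2-sided, Benjamini-Hochberg adjustment over all 12003 genes) was run on log2(FPKM + 1), for genes averaging 1 FPKM or more. It was tested on simulated data. Folds divide mean FPKM with nothing added. Single values, shares and ratios were compared by exact permutation (scipy 1.17.1). Lengths, GC content, positions and tails came from GENCODE 29 through Entrez identifiers, one principal transcript a gene, which need not be the authors' model. The length correction was a loess curve (span 0.5) in each library. Members and lists were chosen with earlier results of these data known. Named genes were the members, USP32, other subunits averaging 1 FPKM or more, the 5 genes nearest to ITGB1, and from each list at most 3 rises and 3 falls, taking called, non-overlapping genes in order of adjusted p. Not every gene named by this rule is reported here. Fits with other pseudocounts, filters, scalings, weights, a replicate block and each library left out were also made.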

Additional observations from a re-analysis of the deposited data

How the results depend on the processing

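The falls of the 10 integrin genes held their direction and call in 167 of 167 values over 17 alternative fits, between -4.19 and -1.10 in log2(FPKM + 1), with limma adjusted p of at most 6.31e-06. A minimum mean FPKM of 5 removed ITGB3, ITGB4 and ITGB8 from the test. Median-ratio scaling moved the median of all genes by 0.12 and that minimum by 0.11. The 3 falls among other subunits became 9 with no filter on low values and 1 with a minimum of 5, which changed the genes tested. That minimum also left 3 hemidesmosome partners lower and 0 matrix ligands higher, and no filter gave 2 higher. After rescaling to the same sum, cytoplasmic partners stood at 25 lower and 1 higher, trafficking genes at 14 lower and 2 higher, and other subunits at 0 higher, with ITGAE at -0.0725. Over all 12003 genes tested, that rescaling gave 7453 lower and 1716 higher. Trafficking genes lower were 3 under quantile normalization and 1 after the length correction, and 14 were higher after a GC correction, chosen after seeing the data. Over all genes, 3604 of 12003 were lower under quantile normalization and 4205 of 11957 after the length correction, and 4724 of 11957 were higher after the GC correction. Array weights left 0 other subunits higher, and leaving out each library in turn gave 0 to 1. The cause of these moves was not tested.

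With only the 10 genes in the sum, the share of ITGA5 rose by 18.1 percentage points in place of 15.7, that of ITGB5 by 5.45 in place of 4.77 and that of ITGB3 by 0.701 in place of 0.598. Leaving out each library in turn gave -0.0606 to 0.0156 percentage points for the share of ITGB8 and -0.0827 to 0.0535 for the log2 ratio of ITGAV to ITGB1, the positive values without siUSP32 replicate 2. Same-numbered libraries correlated at -0.0766, 0.0706 and 0.119 in their deviations from the group means, and differently numbered ones at -0.158 to 0.1. With 3 libraries a group these values cannot decide whether the numbers pair the libraries, and the labels do not state it. With the replicate block 10 of the 10 genes were lower, and over all genes 4979 were lower and 4016 higher against 4956 and 4001 without it. Depth limits ITGB4 and ITGB8 most, at an estimated 44 to 83 fragments per siUSP32 library.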

Other observations

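Genes named after integrins that encode no subunit did not move together, and they were chosen after their values were seen. ITGBL1, a secreted protein with integrin-like repeats, fell 4.02-fold, with 2.96, 3.34 and 3.63 FPKM in siControl and 0.730, 0.900 and 0.840 in siUSP32 (limma adjusted p = 1.19e-06). ITGB3BP, a centromere protein, had 24.2, 23.3 and 25.1 FPKM in siControl and 41.6, 42.0 and 36.6 in siUSP32, a log2 difference of 0.70 that was 0.22 after the length correction. ITGB1BP1, which binds the ITGB1 tail, went from 70.0 ± 3.08 to 80.3 ± 2.71 FPKM (SD), a log2 difference of 0.20 (limma adjusted p = 0.00784) that was -0.17 after rescaling to the same sum.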
